A study of Mus musculus with 4 samples.

Results

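Integrins, selectins, tetraspanins and other cell adhesion molecules were followed on 4 Affymetrix expression arrays of mouse dendritic cells (DC) grown from bone marrow, which take up antigen and show it to T cells. The samples were 2 arrays of immature DC and 2 arrays of NKT-modulated DC, where NKT stands for natural killer T cells, which recognise lipids on CD1d. The genes came from a list of 44 names grouped by function, and it was chosen with earlier results of these data known. Of these, 41 had at least 1 probe set annotated with that gene as its only symbol, among 12393 genes in the table. Itga1, Itgb8 and Spp1 had no such probe set here and were not analysed. All 4 samples carried the strain label c57bl/6, and the design text gives CD11c cells as the RNA source. The sources used here give no age, no dose, time or ratio of NKT cells, and no statement of whether NKT cells were removed before extraction. The design text speaks of repeated experiments, but nothing ties the 2 arrays of a group to separate cultures, so p-values measure only the spread between arrays, which may be technical.

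Integrins are pairs of an alpha and a beta chain that bind matrix proteins or counter-receptors on other cells. A beta chain can pair with several alpha chains, and the pair decides the ligand. In leukocytes, selectins and their ligands slow the cell on the vessel wall, integrins bound to ICAM and VCAM molecules hold it there, and junctional molecules and cadherins attach it to epithelia. Tetraspanins are membrane proteins that gather integrins and other receptors into clusters. DC use these molecules to stay in tissue, to migrate to lymph nodes and to hold T cells during antigen presentation.

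The arrays correlated across probe sets at r = 0.987 and 0.985 within the groups and at 0.960 to 0.965 between them. Itgax, the gene of CD11c, had signals of 5442 and 5537 in immature DC and 5253 and 4643 in NKT-modulated DC, and the DC transcription factor gene Zbtb46 lay between 380.3 and 438.4 on all arrays. The MHC class II genes Cd74 and H2-Ab1 were bright on every array, at 9023 or more. These genes thus had signal in both groups. Because CD11c cells were the RNA source, the signal of Itgax does not test the cell type. Of 16 measured DC markers, 3 were higher and 1 lower (25% called, beside 12.9% of all genes). Macrophage markers were bright as well, with a summed signal of 46198 to 47917 in immature and 47036 on both NKT-modulated arrays. T cell transcripts moved with the groups. Of 25 measured T and NKT cell markers, 13 were higher and 0 lower by limma (52% called, beside 12.9% of all genes). At an unadjusted p under 0.05, 14 were higher and 1 lower, beside 1429 higher and 2062 lower of all 12393 genes. The summed signal of these markers was 4951 to 5800 in immature and 11416 to 13329 in NKT-modulated arrays. Without Il7r, which was bright in immature DC too, the sum was 1806 to 2061 against 6933 to 8655. Cd3g, a chain of the T cell receptor complex, had signals of 19.0 and 15.4 against 1401 and 1046, and Gata3, a T cell transcription factor gene, 16.5 and 18.2 against 825.2 and 812.5. No signal was 0 on any array, and Cd3d, another chain of that complex, was at 5.38 and 5.58 in immature DC. Several adhesion genes below, among them Itgae, Itgb7, Itgal and Itga4, are known in lymphocytes as well as in DC, and the part of T cell RNA in their values was not tested. In these bulk samples, fewer cells of a type and less RNA per cell cannot be told apart.

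**Figure D1:**
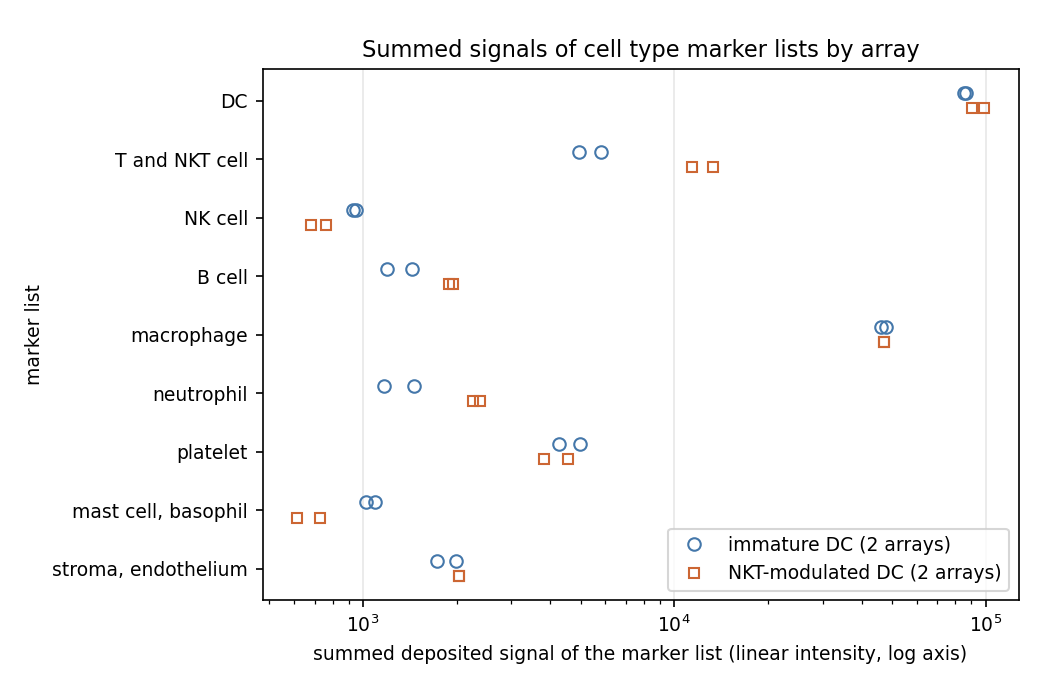
Summed deposited signal of the measured genes of 9 cell type marker lists (vertical axis), on a log axis of linear intensity. Circles are the 2 immature arrays and squares the 2 NKT-modulated arrays; the T and NKT cell list lay at 4951 to 5800 against 11416 to 13329, and the DC list at 85259 to 86655 against 90575 to 98877.

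Adhesion genes changed in both directions. Vcam1, Nectin2, Itgav, Itgb3, Icam1 and Cd82 rose in NKT-modulated DC, and Thbs1, Itgae, F11r, Itgam, Itgb7, Itgb5 and Alcam fell. The steepest rise was that of Vcam1, by 3.37 ± 0.15 on the log2 scale (SE, limma, n = 2 arrays per group; later errors are given likewise). Of the 41 measured genes 6 rose, 7 fell and 28 did not pass an adjusted p of 0.05, so that 31.7% were called, beside 12.9% of all genes (5.99% higher and 6.9% lower). Over genes with a mean signal of at least 50, called genes were 12 of 36 in the list and 17.7% of all. All 6 rises were at least 2-fold in this fit, as were 2 of the 7 falls, beside 3.15% and 2.3% of all genes. For Itgb3 and Cd82 that size depended on the setting: the change of Itgb3 was 0.51 with a pseudocount of 64, and that of Cd82 was 0.98 with that pseudocount, 0.92 without further normalization, 0.98 without immature replicate 1, 0.97 without NKT-modulated replicate 1 and 0.44 as the mean of its probe sets. The median change was -0.16 for the list and -0.04 over all genes. The normalized values of the 2 groups did not overlap for 28 adhesion genes, 11 with NKT-modulated arrays above and 17 below, beside 56.3% of all genes. Over all genes, 46.5% of calls were higher, 35.2% without further normalization and 54% after cyclic loess; in the list these shares were 46.2%, 42.9% and 46.2%.

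More falls than rises lost their call when an array was left out. Over all genes too, lower calls dropped more than higher ones in every such fit. Vcam1, Nectin2, Itgav, Icam1, Cd82 and Itgae passed in each of the 4 fits that leave out 1 array. The count of rises was 5 in each of these fits, Itgb3 being lost. The count of falls dropped from 7 to 2 without immature replicate 1, immature replicate 2 or NKT-modulated replicate 2, and to 1 without NKT-modulated replicate 1. Leaving out an array also leaves 1 array in a group, which is assumed to vary like the other group. The genes concerned are named with their values below. Of the 28 genes that did not pass, 21 had a change that moved by over 1.5 times or turned sign in at least 1 of these fits. None of the 13 called genes did. The measure is relative to a gene's own change, so changes near 0 move easily. The called genes were picked in these same arrays for a large change beside its error. These counts therefore do not compare precision: the SE was 0.08 for Selplg, which did not pass, and 0.31 for Thbs1, which did.

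**Figure D2:**
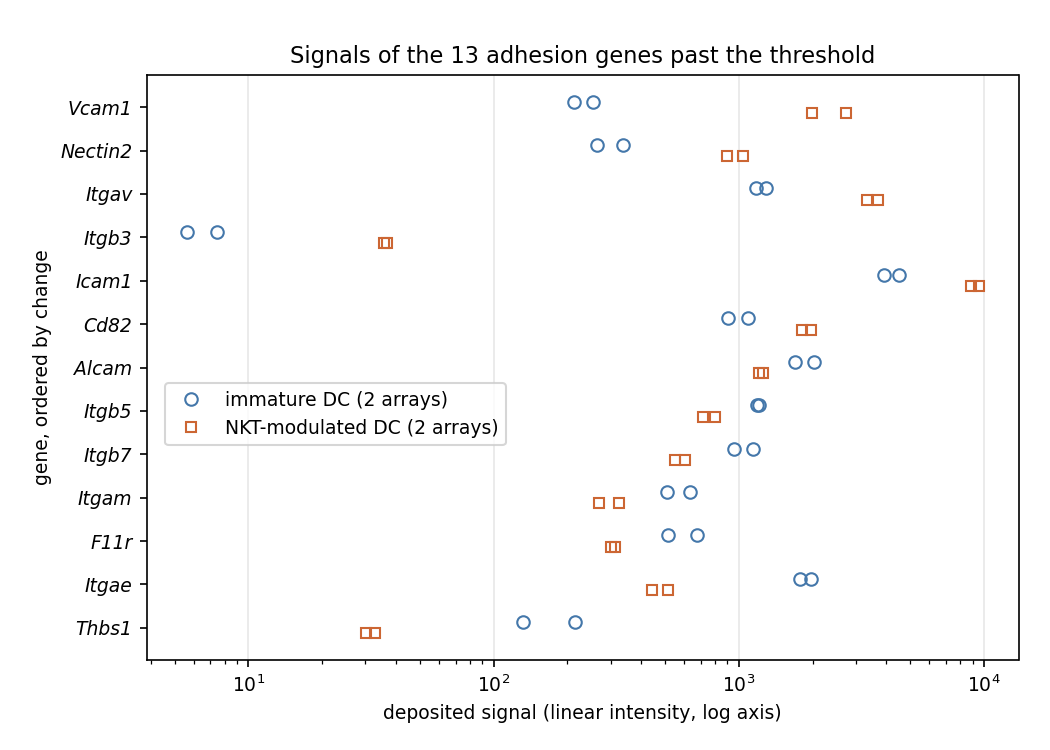
Deposited signals (linear intensity, log axis) of the 13 adhesion genes past an adjusted p of 0.05, ordered from the largest rise (Vcam1, top) to the largest fall of this fit (Thbs1, bottom). Circles are the 2 immature arrays and squares the 2 NKT-modulated arrays. The groups lie apart in each gene shown, but the genes were picked on these same arrays, so this adds no support. Normalized values of the groups did not overlap for 56.3% of all genes.

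**Figure D3:**
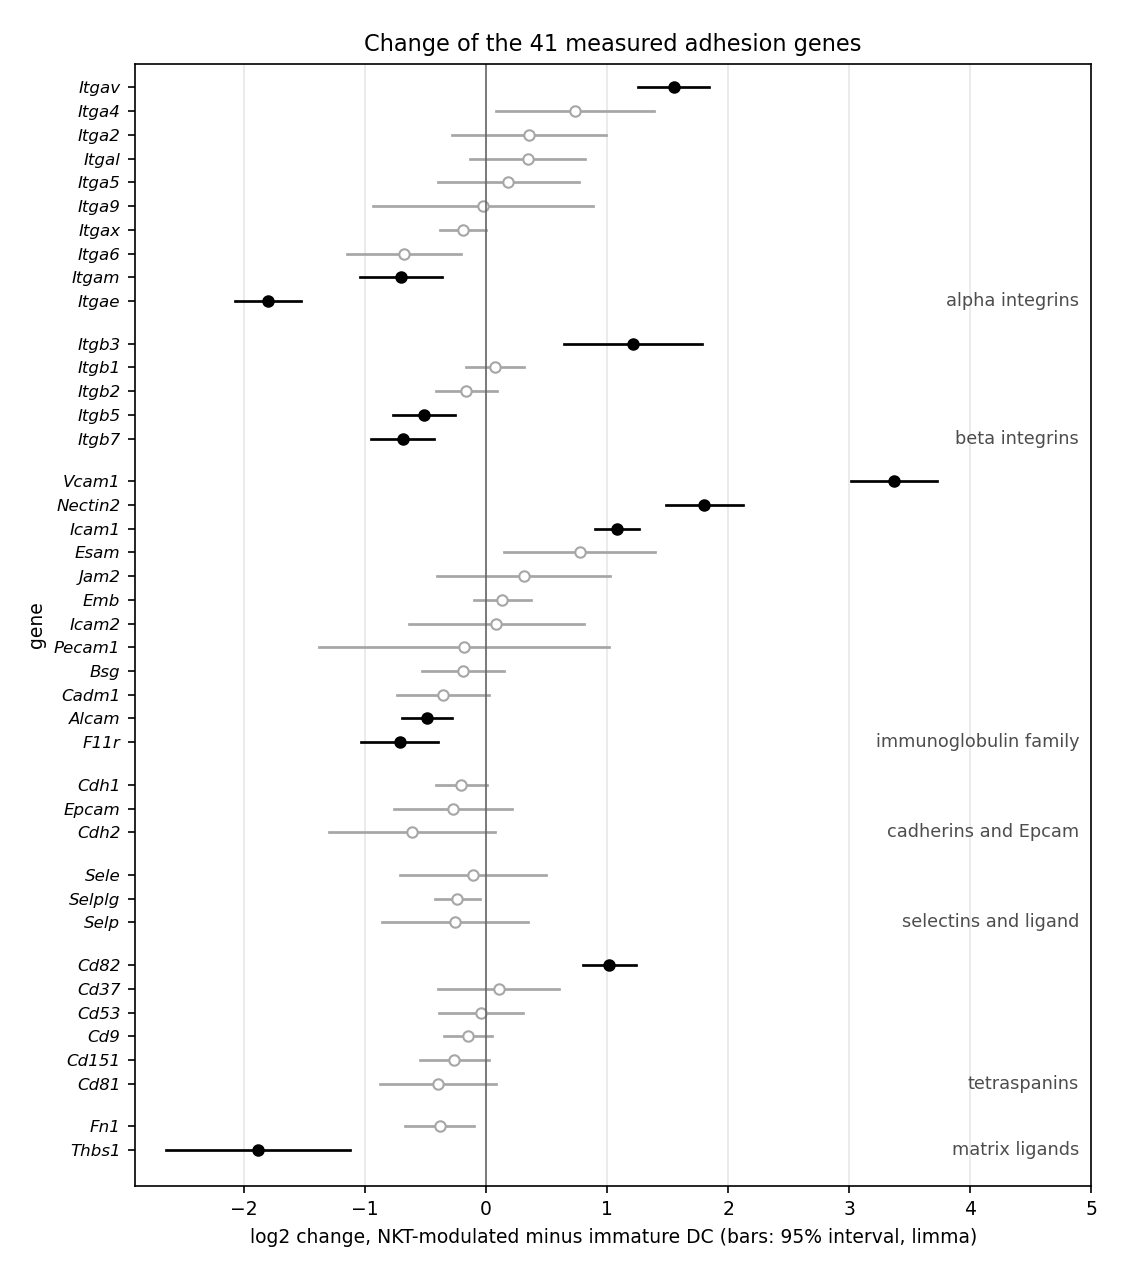
Log2 change, NKT-modulated minus immature DC, of the 41 measured adhesion genes, grouped by role, with the 95% interval of the limma fit. Filled black points passed an adjusted p of 0.05; the 6 rises run from Cd82 at 1.02 to Vcam1 at 3.37, and the 7 falls from Alcam at -0.49 to Thbs1 at -1.88.

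Among the integrins, 2 of 15 measured chains rose, 4 fell and 9 did not pass (40% called, beside 12.9% of all genes). Both chains of the alpha E beta 7 integrin fell. Itgae, the gene of its alpha chain CD103, which binds E-cadherin together with Itgb7 and marks some DC and T cells of epithelial tissue, had signals of 1777 and 1968 in immature DC and 444.1 and 514.1 in NKT-modulated DC. Every immature array was thus more than 3 times as bright as any NKT-modulated one. The change of Itgae was -1.80 ± 0.11 (adjusted p = 5.35e-04). Itgb7, which also pairs with Itga4 to bind the gut vessel molecule MAdCAM, had signals of 960.0 and 1139 against 552.0 and 605.6. It fell by 0.69 ± 0.11 (adjusted p = 0.0115), without overlap of the groups. Its adjusted p was 0.0608 without immature replicate 2, 0.0769 without NKT-modulated replicate 1 and 0.0727 without the intensity trend of the variance. Cdh1, the gene of its ligand E-cadherin, was bright on all arrays, at 6512 and 7165 against 5970 and 6283, with a change of -0.20 that did not pass (adjusted p = 0.208, 95% interval -0.41 to 0.00). The promoter of Itgb7 is shown for the fall of this pair, as the 250 bases before the start in RefSeq's GRCm38.p6, chr15:102231936-102232185, minus strand. Capitals mark its 1 match to letters of the NF-kB type, GGG, any 5 bases and then CC, searched on both strands.
Itgb7: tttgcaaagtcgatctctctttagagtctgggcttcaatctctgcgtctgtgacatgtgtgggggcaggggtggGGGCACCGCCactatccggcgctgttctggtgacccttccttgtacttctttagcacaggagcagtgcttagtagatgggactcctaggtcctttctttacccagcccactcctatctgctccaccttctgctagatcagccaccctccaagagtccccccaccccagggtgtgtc
It held no match to the other searched letters, which were TTCNNNGAA (STAT type), the same with 4 free bases between TTC and GAA (STAT6 type) and TGANTCA (AP-1 type). Of all 32851 promoter windows of this length, 45.8% held the NF-kB type, 7.02% the STAT type, 5.85% the STAT6 type and 6.75% the AP-1 type.

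The chains that pair with alpha V went in different directions. Itgav, the alpha chain of receptors for vitronectin, fibronectin and latent TGF-beta, had signals of 1289 and 1179 in immature DC and 3699 and 3321 in NKT-modulated DC. It rose by 1.55 ± 0.12 (adjusted p = 0.00109), the 1 alpha chain that did so, and the groups did not overlap. A dimmer probe set of Itgav, at 83.3 and 80.1 against 236.3 and 203.1, rose by 1.41 ± 0.20, and the third one, between 10.5 and 60.2, did not pass. Its partner Itgb5, which with Itgav serves in the uptake of dying cells by DC, fell. The brightest Itgb5 probe set had signals of 1186 and 1210 against 799.7 and 717.1, a change of -0.51 ± 0.11 (adjusted p = 0.0318). All 4 probe sets of Itgb5 fell, the other ones by 0.79 to 0.88. The brightest one lost its call without immature replicate 1, immature replicate 2, NKT-modulated replicate 1 and NKT-modulated replicate 2, with adjusted p = 0.128, 0.0624, 0.0991 and 0.145, and without the intensity trend (0.129); the mean over its probe sets had a change of -0.74 (adjusted p = 0.00418). Itgb3, another partner of Itgav, rose from a very dim level. Its signals were 5.60 and 7.46 against 36.8 and 35.7, a change of 1.21 ± 0.23 (adjusted p = 0.0261). The size depended on the pseudocount, 2.31 with 1 and 0.51 with 64. Without immature replicate 1, immature replicate 2, NKT-modulated replicate 1 and NKT-modulated replicate 2, Itgb3 had adjusted p = 0.134, 0.0926, 0.0827 and 0.0849. The windows before the starts of Itgav and Itgb5, chains of 1 receptor that moved in opposite directions, are shown with the same searches. They lie at chr2:83724147-83724396, plus strand, and chr16:33829415-33829664, plus strand.
Itgav: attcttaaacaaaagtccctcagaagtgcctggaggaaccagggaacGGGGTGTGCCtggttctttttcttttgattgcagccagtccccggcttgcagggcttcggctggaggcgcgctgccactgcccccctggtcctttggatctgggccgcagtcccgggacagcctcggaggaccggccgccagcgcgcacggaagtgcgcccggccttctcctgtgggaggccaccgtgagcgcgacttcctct
Itgb5: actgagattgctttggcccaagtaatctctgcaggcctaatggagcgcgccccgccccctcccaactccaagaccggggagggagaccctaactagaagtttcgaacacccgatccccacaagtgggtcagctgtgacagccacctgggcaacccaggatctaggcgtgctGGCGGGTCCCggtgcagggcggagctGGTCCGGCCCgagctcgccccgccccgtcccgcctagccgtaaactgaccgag
Capitals mark matches to the NF-kB type on either strand, 1 in Itgav and 2 in Itgb5.

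Of the leukocyte integrins built on Itgb2, the Mac-1 alpha chain fell. Itgam, the gene of CD11b, a receptor of complement fragments and ICAM-1, had signals of 512.1 and 632.0 in immature DC and 326.1 and 269.4 in NKT-modulated DC. It fell by 0.71 ± 0.14 (adjusted p = 0.0276), and the groups did not overlap. The call was lost in every fit that left out an array, with adjusted p = 0.0923 and 0.132 without immature replicates 1 and 2 and 0.0634 and 0.113 without NKT-modulated replicates 1 and 2; without the intensity trend it was 0.0827. Of 12 macrophage markers, among which Itgam is not counted, 1 rose and 5 fell (50% called, beside 12.9% of all genes). Their summed signal was 46198 to 47917 in immature and 47036 on both NKT-modulated arrays. The part of these markers in the fall of Itgam was not tested. Itgb2, the shared beta chain, had signals of 8498 and 9207 against 7959 and 8669, which overlapped, and a change of -0.16 (95% interval -0.41 to 0.09). Itgax had a change of -0.19 (adjusted p = 0.204), and Itgal, the LFA-1 alpha chain that binds ICAM-1, one of 0.34 from signals of 195.4 and 297.7 against 257.4 and 275.9. The interval of Itgal, -0.13 to 0.82, leaves room for no change as well as for a rise. Its change was 0.13 without further normalization and also without immature replicate 1.

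Neither Itgb1 nor its alpha chains Itga2, Itga4, Itga5, Itga6 and Itga9 passed. Itgb1, the common beta chain of receptors for collagen, laminin and fibronectin, had signals of 1498 and 1523 against 1561 and 1434, with a change of 0.07 ± 0.10. Both groups overlapped, and none of its 6 probe sets passed. Itga4, the VLA-4 alpha chain that binds VCAM-1 and fibronectin, had 63.6 and 76.4 against 142.4 and 93.1, a change of 0.73 with an interval of 0.08 to 1.38 (adjusted p = 0.154). Itga6, a laminin receptor chain, had 207.8 and 232.4 against 108.0 and 119.8, with no overlap and a change of -0.68 (adjusted p = 0.0841). It was called without further normalization (adjusted p = 0.0493) and when dim probe sets were left out before the fit (0.0303). Itga5, the fibronectin receptor chain, Itga2, a collagen receptor chain, and Itga9 had mean signals under 100 and changes of 0.19, 0.36 and -0.02.

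Within the immunoglobulin family, 3 of 12 genes rose and 2 fell (41.7% called, beside 12.9% of all genes). The 3 rises were of counter-receptors. Vcam1, the ligand of VLA-4, had signals of 213.1 and 254.2 in immature DC and 2727 and 2000 in NKT-modulated DC, about an order of magnitude apart. Its change was 3.37 ± 0.15 (adjusted p = 1.28e-04). The other probe sets of Vcam1 rose as well, by 2.03 ± 0.20 and 1.43 ± 0.23, so the size of the rise depended on the probe set. Of 12 markers of stroma and endothelium, other cells that make Vcam1, 2 rose (16.7% called, beside 12.9% of all genes). Their summed signal was 1735 to 1986 against 2029 to 2032. The part of such cells in the Vcam1 values was not tested. Icam1, the ligand of LFA-1 and Mac-1, had 3924 and 4500 against 9543 and 8847. It rose by 1.08 ± 0.07 (adjusted p = 7.37e-04), and the groups lay far apart. Nectin2, a junction molecule that binds nectins and the lymphocyte receptors DNAM-1 and TIGIT, had 264.0 and 338.3 against 1045 and 897.4. It rose by 1.80 ± 0.13 (adjusted p = 8.67e-04), and its other probe set by 2.08 ± 0.14. These 3 genes passed in all 12 other fits at the same threshold.

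The windows before the starts of Icam1 and Nectin2, counter-receptors that rose together, are shown at chr9:21015690-21015939, plus strand, and chr7:19749574-19749823, minus strand, in the same build and with the same searches.
Icam1: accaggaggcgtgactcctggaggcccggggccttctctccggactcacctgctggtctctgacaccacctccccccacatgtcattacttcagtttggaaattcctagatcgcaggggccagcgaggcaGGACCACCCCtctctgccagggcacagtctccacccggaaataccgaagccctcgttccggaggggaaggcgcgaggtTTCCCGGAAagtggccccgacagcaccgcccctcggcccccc
Nectin2: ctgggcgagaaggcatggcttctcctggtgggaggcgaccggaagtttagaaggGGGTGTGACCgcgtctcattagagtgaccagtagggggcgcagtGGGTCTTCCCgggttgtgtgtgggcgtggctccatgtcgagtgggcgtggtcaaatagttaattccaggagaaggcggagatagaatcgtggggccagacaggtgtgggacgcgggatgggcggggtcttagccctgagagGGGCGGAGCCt
In Icam1 the capitals TTCCCGGAA, 42 to 34 bases before the start, match TTCNNNGAA, letters of the type that STAT factors bind, which were found in 7.02% of all windows. The other capitals in Icam1 and all in Nectin2 match the NF-kB type on either strand, and the middle run of Nectin2 matches it on both. Other letters that NF-kB factors may bind were not searched, so stretches in lower case may hold them. The 4 rising genes in the promoter table had 7 windows, several of them of Cd82, so windows are not separate genes. Of these 7 windows, 5 held the NF-kB type and 1 the STAT type, beside 45.8% and 7.02% of all windows. Of the 5 windows of falling genes 4 and 0 did, and of the 16 windows of genes that did not pass 8 and 1.

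Alcam and F11r fell by smaller amounts. Alcam, the CD6 ligand that supports contact of DC with T cells, had signals of 1703 and 2030 against 1262 and 1216. Its change was -0.49 ± 0.08 (adjusted p = 0.0182), and a second probe set had -0.27, which did not pass. F11r, the tight junction molecule JAM-A, had 517.1 and 673.8 against 313.9 and 302.1, a change of -0.71 ± 0.13 (adjusted p = 0.0217). Both genes separated the groups, yet both lost their call in each fit with an array left out. Without immature replicate 1, immature replicate 2, NKT-modulated replicate 1 and NKT-modulated replicate 2 the adjusted p of Alcam was 0.0512, 0.0793, 0.100 and 0.0973, and that of F11r 0.0560, 0.117, 0.0945 and 0.0881. Without the intensity trend they were 0.119 and 0.0735. Averaged with its dim second probe set, F11r had a change of -0.06 (adjusted p = 0.933).

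The other 7 immunoglobulin genes did not pass. Esam, an endothelial and DC adhesion molecule, had signals of 53.0 and 38.8 against 88.2 and 82.9, which did not overlap, with a change of 0.77 (95% interval 0.15 to 1.40, adjusted p = 0.122). Cadm1, a marker of cross-presenting DC that binds CRTAM on lymphocytes, had 316.4 and 406.3 against 227.9 and 249.8, a change of -0.35 (adjusted p = 0.226), and all 4 of its probe sets had changes below 0 without passing. Emb and Bsg, related chaperones of lactate transporters, were bright and had changes of 0.13 and -0.19. Icam2, Pecam1 and Jam2, known from endothelium, had signals under 100 on every array and changes of 0.09, -0.18 and 0.31. Pecam1, at 42.6 and 8.72 against 9.07 and 29.3, spread too widely for a comparison.

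Of 3 cadherin and epithelial genes and of 3 selectin genes, 0 were called by limma, beside 12.9% of all genes. At an unadjusted p under 0.05 these were 0 and 1 (Selplg), beside 1429 higher and 2062 lower of all 12393 genes. Besides Cdh1, Cdh2, the neural cadherin, had signals of 88.8 and 78.2 against 40.0 and 54.4 and a change of -0.61 (adjusted p = 0.247). Epcam, an epithelial molecule also found on Langerhans cells, had 473.0 and 371.5 against 285.1 and 313.6, a change of -0.27 (adjusted p = 0.478) that was -0.016 without immature replicate 1 and -0.53 without immature replicate 2. The deposited signals of both genes were lower on each NKT-modulated array, but the normalized values of Epcam overlapped between the groups. Neither change passed. Selplg, the gene of the selectin ligand PSGL-1, was bright at 6347 and 6293 against 5718 and 5322, with a change of -0.24 (95% interval -0.42 to -0.05, adjusted p = 0.115). The selectins Sele and Selp, made by endothelium and platelets, stayed below 60 on every array and had changes of -0.11 and -0.25.

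Of 6 tetraspanins, Cd82 alone passed by its brightest probe set (16.7% called, beside 12.9% of all genes). Cd82, which associates with integrins and MHC class II in DC, had signals of 903.9 and 1087 in immature DC and 1972 and 1819 in NKT-modulated DC. It rose by 1.02 ± 0.09 (adjusted p = 0.00168), without overlap. A dim second probe set of Cd82 varied from 27.3 to 144.8 within immature DC, and the mean of both had a change of 0.44 (adjusted p = 0.566). Cd9, a partner of integrins and of MHC class II, was bright and close between groups, at 5557 and 5538 against 5128 and 5143, a change of -0.15 (95% interval -0.35 to 0.05). Cd81, known from the B cell coreceptor, had 1864 and 1495 against 1359 and 1035 and a change of -0.40 (adjusted p = 0.281). That change was -0.14 without immature replicate 1, -0.66 without immature replicate 2 (adjusted p = 0.0938) and -0.22 without NKT-modulated replicate 2. Cd53 and Cd37, tetraspanins of leukocytes, had overlapping signals and changes of -0.04 and 0.10. The brightest Cd151 probe set had 1129 and 1507 against 962.8 and 1030, a change of -0.26 (adjusted p = 0.234), whereas its dimmest, at 12.8 and 5.64 against 41.6 and 35.2, was higher by 1.12 ± 0.25 (adjusted p = 0.0416). The probe sets of this laminin-binding integrin partner therefore pointed both ways.

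The matrix ligands measured here were Thbs1 and Fn1. Thbs1, a secreted glycoprotein that binds CD36, CD47 and integrins, had signals of 214.4 and 132.3 in immature DC and 32.7 and 30.1 in NKT-modulated DC. Its change was -1.88 ± 0.31 (adjusted p = 0.0148), and the groups did not overlap. Itgae fell further than Thbs1 with a pseudocount of 64, with the mean of probe sets and without immature replicate 1, where Thbs1 had -1.52. A second Thbs1 probe set, at 75.02 and 58.74 against 41.13 and 44.99, had -0.46 and did not pass, and the mean of both had -1.17 (adjusted p = 0.0314). With a pseudocount of 64 the change was -1.23. Without immature replicate 1, NKT-modulated replicate 1 and NKT-modulated replicate 2 the adjusted p was 0.0820, 0.0663 and 0.0562. Fn1, fibronectin, had 7425 and 7207 against 5356 and 6208 by its brightest probe set, a change of -0.38 that did not pass (adjusted p = 0.0998). It passed when dim probe sets were left out before the fit (0.0398), and it was -0.23 without NKT-modulated replicate 1 and -0.54 without NKT-modulated replicate 2. Its other probe set, at 181.5 and 193.3 against 60.5 and 52.0, fell by 1.37 ± 0.22 (adjusted p = 0.0127). The mean of the Fn1 probe sets had a change of -0.88 (adjusted p = 0.00223).

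Probe sets of a gene differed in how far they moved. The 41 genes had 80 probe sets, and 21 genes had more than 1. Of the 80, 22 were called (27.5%), beside 11.1% of all probe sets. Of the 13 called genes, 8 had several probe sets, and 3 of these, Vcam1, Nectin2 and Itgb5, had all of them called. None of the 8 had probe sets called in both directions. For 2 genes, Fn1 and Cd151, a dimmer probe set passed while the brightest did not.

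**Figure D4:**
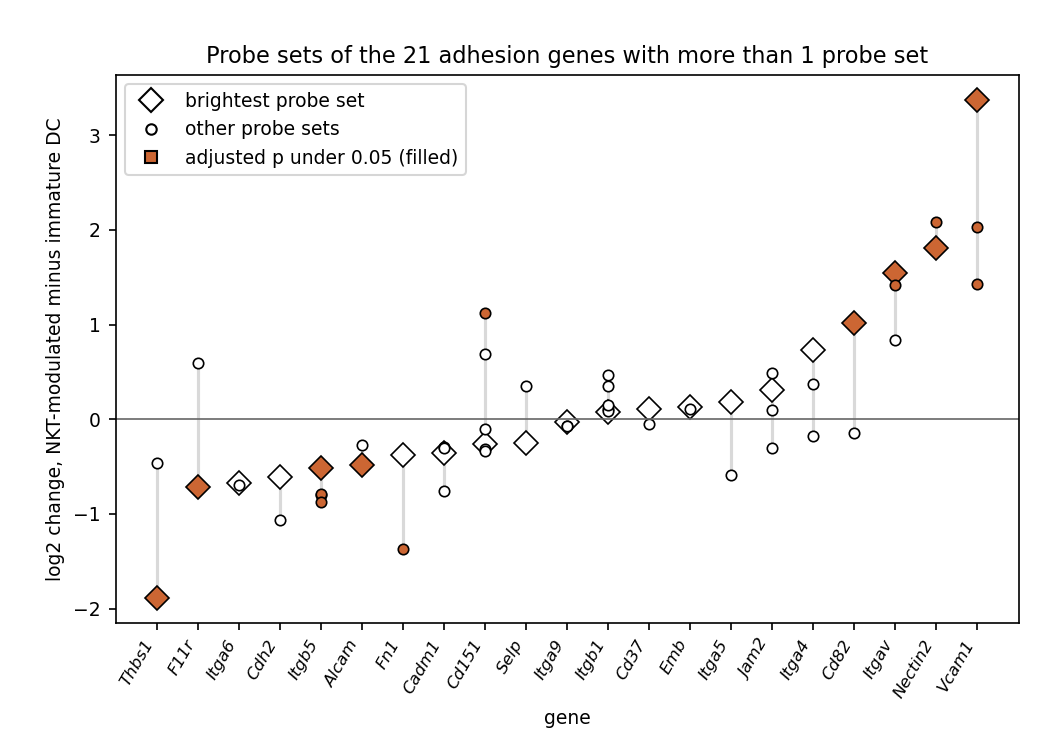
Log2 change, NKT-modulated minus immature DC, of every probe set of the 21 adhesion genes with more than 1, ordered by the change of the brightest. Diamonds are the brightest probe sets, circles the others, and filled symbols passed an adjusted p of 0.05; Itgb5, Nectin2 and Vcam1 were filled throughout, and Cd151 spanned both sides of 0.

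Genes around these molecules were counted from lists of the same pathway. Of 30 measured genes of integrin activation and signalling, 1 rose and 5 fell (20%, beside 12.9% of all genes), with a median change of -0.04. Src, a kinase that acts downstream of integrins, had signals of 399.4 and 535.7 against 878.5 and 1064 and rose by 1.21 ± 0.15 (adjusted p = 0.00477). Parvg, a leukocyte parvin at the integrin tail, fell by 0.97 ± 0.13, and Ptk2b, the adhesion kinase PYK2, by 0.81 ± 0.12. Tln1 and Fermt3, the talin and kindlin that switch leukocyte integrins on, fell by 0.57 ± 0.10 and 0.40 ± 0.08 (adjusted p = 0.0204 and 0.0338). Rassf5, the RAP1 effector of LFA-1 activation, fell by 0.42 ± 0.09. For Tln1 and for Parvg 1 of 2 probe sets was called lower, for Fermt3 2 of 3, for Rassf5 2 of 2 and for Ptk2b 1 of 1. How these genes fared in the other fits is not given here. Of 7 other integrin genes, 0 were called by limma and 1 had an unadjusted p under 0.05. Of all 12393 genes, 1429 were higher and 2062 lower at that unadjusted threshold. Among the other integrin genes, 4 had mean signals under 50.

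Other adhesion receptors also went both ways. Of the 34 genes with a probe set, 5 were called higher and 4 lower (26.5%, beside 12.9% of all genes), with a median change of 0.12. Sdc4, a syndecan that works with integrins on fibronectin, had signals of 248.3 and 275.8 against 1950 and 2183, a rise of 3.04 ± 0.11 (adjusted p = 9.17e-05). Pvr, like Nectin2 a ligand of DNAM-1 and TIGIT, had 483.8 and 716.6 against 1920 and 1769 and rose by 1.74 ± 0.14 (adjusted p = 0.00132). Thy1, a T cell surface molecule that is also in the T cell list, rose by 4.0 ± 0.19, and so did Cd44, the hyaluronan receptor, by 0.65 ± 0.10 and Cd96, a lymphocyte receptor of Pvr, by 2.11 ± 0.33. Cd93, L1cam, Sdc3 and the cadherin Cdh17 fell by 1.3 ± 0.16, 0.66 ± 0.11, 0.65 ± 0.13 and 0.62 ± 0.13. Of 16 other tetraspanins, 1 rose and 3 fell (25%, beside 12.9% of all genes). Tspan33 rose by 0.82 ± 0.11, and Tspan2, Tspan14 and Tspan3 fell by 1.33 ± 0.26, 0.83 ± 0.19 and 0.50 ± 0.11. Of 26 other matrix genes, 1 rose and 1 fell (7.69%, below the 12.9% of all genes). Tgfbi, a secreted integrin ligand, fell by 1.21 ± 0.08 from signals of 5256 and 5664 to 2458 and 2249. Lama5, a laminin chain, rose by 2.53 ± 0.28 from 26.4 and 18.0 to 230.3 and 154.0.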

How the data were processed

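The deposited table has 22690 probe sets with a linear signal intensity on each array. GCOS was used on the images by the authors, according to the submitters' processing notes. Its version, how probes were summarised and how arrays were scaled: not given in the sources used here. Log transformation is named in the design text, but the deposited intensities are linear; detection calls were not used. Having 2 arrays per group limits the precision.

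The 64 control probe sets were left out. The log2 of signal + 16 was taken and quantile normalized, since quartiles differed by up to 0.27 between arrays. The pseudocount understates changes of dim genes. Groups were compared over 22626 probe sets by linear models and empirical Bayes in limma 3.58.1 (R 4.3.3, two-sided, the prior variance following intensity). Benjamini-Hochberg adjustment ran over all of them, with a threshold of 0.05. The fit had 2 residual and 4.13 prior degrees of freedom. The fit was checked on data simulated from its own variance model with normal errors. That check did not cover the pseudocount, the normalization or the choice of probe sets, and it cannot tell whether the model holds here.

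The design text names the Mouse Genome 430 2.0 array, which carries more probe sets than this table, so the table may hold part of that array or come from another of its family, and a gene without a probe set here is not thereby absent from the array. Probe sets were named through the platform annotation given for the table. It gave 1 symbol for 20380 of those tested, several for 691 and none here for 1555. A RefSeq gene table of GRCm38.p6 updated 20351 symbols by their gene ID. The brightest single-symbol probe set by mean signal stands for a gene. Promoter windows of 27 of the 44 listed genes were in the RefSeq promoter table of GRCm38.p6.

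The genes, lists and tests were chosen with earlier results of these data known. All measured genes of the adhesion list are named, with up to 3 called genes of each pathway list by smallest p, called genes of the other marker lists, and Cd3g, Gata3 and Thy1, and 4 genes of DC identity. Other called genes of the pathway lists, and Cd3d, were added after their values were seen. Alternatives were pseudocounts of 1 and 64, no further normalization, cyclic loess, no intensity trend, a minimum mean signal of 50, adjustment over the brightest probe sets, the mean of a gene's probe sets, an adjusted p under 0.001, and leaving out each array.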

Additional observations from a re-analysis of the deposited data

How the results depend on the processing

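No called adhesion gene changed sign in the 12 other fits, of which Itgb3 was in 11, being too dim for the minimum mean signal of 50. Vcam1, Nectin2, Itgav, Icam1 and Itgae, 5 of the 13, passed in all 12. At an adjusted p under 0.001, the threshold of the design text, 3 adhesion genes were higher and 1 lower, and 131 and 22 of all genes. Without the intensity trend, 2 adhesion genes were lower, and 384 and 272 of all genes were higher and lower. Leaving out each array gave 1 to 2 lower adhesion genes, 397 to 510 higher genes over all and 305 to 406 lower ones. Changes that did not pass turned sign as follows. The mean of probe sets gave Itga5 -0.20, Selp 0.047 and Cd151 0.13. Cyclic loess gave Itga9 0.058 and Cd53 0.00187. No further normalization gave Itgb1 -0.013 and Cd37 -0.11. Leaving out an array gave ranges of -0.46 to 0.43 for Itga9, -0.013 to 0.16 for Itgb1, -0.23 to 0.41 for Icam2, -0.77 to 0.42 for Pecam1, -0.24 to 0.026 for Sele, -0.21 to 0.12 for Cd53 and -0.14 to 0.34 for Cd37. The cause of these shifts was not tested, beyond the fewer arrays of a left-out fit. No paired analysis was possible because the labels give the groups no shared replicate number. Dim genes such as Itgb3 and Pecam1 are limited by signals near the pseudocount.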

Other observations

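Marker lists of cell types gave these values. Of 16 DC markers, the transcription factor genes Batf3, Irf4 and Irf8 rose by 1.74 ± 0.09, 1.14 ± 0.08 and 0.67 ± 0.09, and Csf2ra, a GM-CSF receptor chain, fell by 0.50 ± 0.08 (limma, SE, n = 2 arrays per group). Of 8 B cell markers, Cd79b, a chain of the B cell receptor, rose by 2.47 ± 0.23 and Blnk by 1.22 ± 0.11. Of 10 NK cell markers, Nkg7 and Gzma, genes of cytotoxic granules, rose by 2.42 ± 0.23 and 1.69 ± 0.26, and Klrd1 fell by 1.91 ± 0.16. Of 12 macrophage markers, 1 rose and 5 fell: Mertk, a receptor for dying cells, rose by 1.09 ± 0.09, the complement genes C1qa, C1qb and C1qc fell by 1.15 ± 0.18, 1.09 ± 0.21 and 0.73 ± 0.11, and Cd14 and Fcgr1 by 0.54 ± 0.08 and 0.54 ± 0.09. Of 11 neutrophil markers, Cxcr2 rose by 2.69 ± 0.17, Ngp by 0.94 ± 0.19 and S100a8 by 0.62 ± 0.14. Kit, of 10 mast cell and basophil markers, fell by 0.88 ± 0.18. Of 12 stromal and endothelial markers, Kdr, a receptor of vascular growth factor, rose by 1.77 ± 0.19 and Lum by 1.94 ± 0.27. Of 6 platelet markers 0 were called by limma and 0 had an unadjusted p under 0.05. Of all genes, 12.9% were called, and at an unadjusted p under 0.05 1429 were higher and 2062 lower of 12393.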
